A study of Mus musculus with 20 samples.

Results

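The chemokine ligands are the genes whose symbol begins with Ccl, Cxcl, Cx3cl or Xcl followed by a number and which the annotation of the mouse genome GRCm38 lists as protein coding. They were chosen by symbol alone, and 37 of the 51826 genes in the count table met the rule. Of these, 23 had a mean of 1 CPM (CPM, the count scaled to 1000000 counts in the library) or more in at least 1 group of libraries and are called expressed here, and 25 had enough counts to be tested. The libraries hold poly-A RNA of primary renal myofibroblasts, the contractile and matrix-producing cells of the scarred kidney, which grew out of minced kidney pieces of C57BL/6J mice and were used at passage 2. There were 20 libraries, with 5 in each of 4 groups: WT untreated, WT treated with TGFβ1, WWP2-/- untreated, and WWP2-/- treated with TGFβ1, a growth factor that activates fibroblasts. WWP2 is an E3 ubiquitin ligase, and the study describes the WWP2-/- cells as lacking its full-length and N isoforms. The labels do not give the dose or duration of TGFβ1, which the study's text states. They number the libraries from 1 to 5 in each group without saying that these came from separate mice or cultures, so the P values measure the spread between these libraries, which may be technical. Below, "treated" means with TGFβ1, and a library is named by its group and number, such as treated WT 2.

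Chemokines are small secreted proteins that bind G protein-coupled receptors on leukocytes and direct their migration along a concentration gradient. The families are named by the spacing of conserved cysteines (CC, CXC, CX3C and C). Many inflammatory chemokines are switched on together in stromal cells by TNF, IL-1 or interferons through transcription factors such as NF-κB and IRFs, whereas homeostatic chemokines such as Cxcl12 are made steadily. In the injured kidney, fibroblasts, tubular cells and macrophages are all known sources of chemokines that draw in monocytes, neutrophils and T cells.

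Promoter sequences are shown for inflammatory ligands that were high in the same libraries (Cxcl1, Cxcl2, Cxcl3 and Cxcl10) and for the ligands that passed the test between genotypes (Ccl20 and Cxcl14). All were chosen among those with a motif match. Ccl8 and Cxcl9, high in the same libraries, and Ccl28, high in some of them, had no match in this window. Each runs from 250 bases before to 50 bases after the start of transcription in RefSeq, build GRCm38.p6, and is written 5′ to 3′ on the strand of the gene. Of the 37 ligands, 27 had an entry. Ccl2, Ccl5, Ccl7 and Cxcl5, inflammatory ligands also high in these libraries, had no entry and were not searched. Capitals mark matches to a form of the NF-κB site (GGG and TTCC with any 3 bases between them) or to a form of the interferon-stimulated response element (TTTC and TTTC with any 2 bases between them), searched on both strands.

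Cxcl1, chr5:90890995-90891294, + strand: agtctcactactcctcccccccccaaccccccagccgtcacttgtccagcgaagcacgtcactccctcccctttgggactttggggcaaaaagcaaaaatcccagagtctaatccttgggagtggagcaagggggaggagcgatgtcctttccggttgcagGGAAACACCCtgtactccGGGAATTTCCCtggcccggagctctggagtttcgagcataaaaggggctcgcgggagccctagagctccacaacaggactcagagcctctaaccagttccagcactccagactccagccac
Cxcl2, chr5:90903649-90903948, + strand: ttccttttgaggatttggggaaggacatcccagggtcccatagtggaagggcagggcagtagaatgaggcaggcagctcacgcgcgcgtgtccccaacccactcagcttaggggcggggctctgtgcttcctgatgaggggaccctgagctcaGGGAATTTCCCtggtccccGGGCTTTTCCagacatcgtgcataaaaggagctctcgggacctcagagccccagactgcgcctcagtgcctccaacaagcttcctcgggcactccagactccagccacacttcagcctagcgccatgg
Cxcl3, chr5:90785851-90786150, + strand: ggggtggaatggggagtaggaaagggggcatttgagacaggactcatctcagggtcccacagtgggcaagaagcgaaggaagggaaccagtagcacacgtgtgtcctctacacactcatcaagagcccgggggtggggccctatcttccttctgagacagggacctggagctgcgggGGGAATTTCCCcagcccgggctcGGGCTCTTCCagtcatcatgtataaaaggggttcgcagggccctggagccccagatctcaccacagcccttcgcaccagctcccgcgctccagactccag
Cxcl10, chr5:92348840-92349139, - strand: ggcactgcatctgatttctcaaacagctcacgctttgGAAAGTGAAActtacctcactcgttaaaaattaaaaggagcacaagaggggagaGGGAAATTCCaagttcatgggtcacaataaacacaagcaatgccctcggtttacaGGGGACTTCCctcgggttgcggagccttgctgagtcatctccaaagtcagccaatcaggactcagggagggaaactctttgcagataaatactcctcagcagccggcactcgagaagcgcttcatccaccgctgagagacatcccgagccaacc
Ccl20, chr1:83116516-83116815, + strand: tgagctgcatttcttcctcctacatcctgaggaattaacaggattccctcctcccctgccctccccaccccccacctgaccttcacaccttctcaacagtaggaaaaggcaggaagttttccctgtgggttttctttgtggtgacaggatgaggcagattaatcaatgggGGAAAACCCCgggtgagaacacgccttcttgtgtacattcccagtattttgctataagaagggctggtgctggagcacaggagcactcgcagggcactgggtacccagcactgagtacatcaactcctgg
Cxcl14, chr13:56296502-56296801, - strand: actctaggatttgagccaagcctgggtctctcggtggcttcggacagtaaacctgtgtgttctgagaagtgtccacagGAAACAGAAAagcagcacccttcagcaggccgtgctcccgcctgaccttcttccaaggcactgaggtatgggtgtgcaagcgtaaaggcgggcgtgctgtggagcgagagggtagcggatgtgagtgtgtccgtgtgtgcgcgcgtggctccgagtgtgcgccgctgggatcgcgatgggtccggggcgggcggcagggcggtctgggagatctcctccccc

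The NF-κB form was present in 5.56% of 32851 RefSeq promoter entries of this length. It was present in at least 1 entry of 7 of the 27 ligands, of which 6 were expressed (Ccl9, Ccl20, Cxcl1, Cxcl2, Cxcl3 and Cxcl10). Some ligands, such as Ccl25 and Ccl27a, have several entries, so the share of entries and the count of ligands are in unlike units. In Cxcl1, Cxcl2 and Cxcl3, neighbours on chromosome 5, the match GGGAATTTCC on the plus strand overlaps GGAATTTCCC on the minus strand and begins 71, 97 and 73 bases before the start, respectively. The interferon form was present in 3.44% of entries and in 3 of the 27 ligands, of which Cxcl10 and Cxcl14 were expressed. Cxcl10 held both motifs, with 2 matches to the former. These matches describe letters in a window, and binding was not measured.

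The libraries held 47520759 to 73063697 counts each, and the median library held 55863325.5. Where no read was counted, up to 3 counts are still possible, which is at most 0.0631 CPM and covers counting error only. Wwp2 was at 46.7 to 61.6 CPM in WT and 15.5 to 24 CPM in WWP2-/- libraries. Untreated WWP2-/- 3 and treated WWP2-/- 1 go against the myofibroblast label in Acta2. Their Acta2, which encodes the smooth muscle actin of myofibroblasts, was at 39.7 and 49.0 CPM, against 945 CPM or more in the other libraries. Other fibroblast markers went both ways. Dcn was at 1171 and 1410 CPM, the highest of all libraries. Pdgfra was at 95.4 and 102 CPM, against at most 15.2 CPM in the other WWP2-/- libraries. Vim was at 1006 and 1080 CPM, the lowest of all libraries. Over 20407 genes, untreated WWP2-/- 3 and treated WWP2-/- 1 were each most like the other (r = 0.992). Likeness across groups was not theirs alone. Untreated WT 4 and untreated WWP2-/- 2 were each most like treated WWP2-/- 5 (r = 0.992 and 0.993). Treated WT 3 was most like treated WWP2-/- 2 (r = 0.983). Results that rest on untreated WWP2-/- 3 and treated WWP2-/- 1, the libraries low in Acta2, are given with and without them. Xist, transcribed from the inactive X chromosome of female cells, was at 1 CPM or more in 4 of 5 untreated WT, 4 of 5 treated WT, 2 of 5 untreated WWP2-/- and 1 of 5 treated WWP2-/- libraries, so genotype and Xist status overlap. In 5 of these 11 libraries the Y-linked Ddx3y was also present, at 18.2 to 116 CPM, so Xist at 1 CPM or more does not mark libraries of female cells alone. All 10 macrophage markers reached 1 CPM in each group. Their summed level was 147 to 4275 CPM in untreated WT, 72.0 to 468 CPM in treated WT, 92.6 to 1985 CPM in untreated WWP2-/- and 84.8 to 3757 CPM in treated WWP2-/- libraries. The summed levels of 8 neutrophil and 8 lymphocyte markers were at most 3.97 and 1.02 CPM, endothelial markers 20.8 to 267 CPM, tubular markers 14.9 to 474 CPM and mesothelial markers 15.7 to 111 CPM. In bulk libraries, fewer cells of a type and less RNA per cell cannot be told apart.

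Compared per length, in TPM (the count per base of exon, scaled to the same sum in every library), the most abundant ligands by their median over the 20 libraries were Cxcl12 (159 TPM), Ccl7 (119 TPM) and Ccl2 (106 TPM), followed at a distance by Cxcl16 (29.0 TPM) and Cx3cl1 (20.3 TPM). The order differed between libraries. Ccl2 had the highest TPM in 9 libraries, Cxcl12 in 6, Ccl6 in 3, and Ccl7 and Cx3cl1 in 1 each. The maximum of Ccl2, 6600 TPM in treated WWP2-/- 1, was 41.8% of the TPM of all ligands in that library. The spread is so wide that the neighbours Cxcl12, Ccl7 and Ccl2 in this order do not differ beyond it. Between 10 and 21 ligands reached 1 CPM in any library, and 8 did so in all 20: Ccl2, Ccl7, Cxcl12, Cxcl16, Ccl6, Cx3cl1, Ccl27a and Ccl25. The 37 ligands summed to 276 to 926 CPM in untreated WT, 362 to 2074 CPM in treated WT, 290 to 4575 CPM in untreated WWP2-/- and 115 to 5076 CPM in treated WWP2-/- libraries. Both maxima of the WWP2-/- groups were the libraries low in Acta2. Of the 23 expressed ligands, 12 had their highest level in one of these libraries, and for 10 of them the libraries took both top places.

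**Figure D1:**
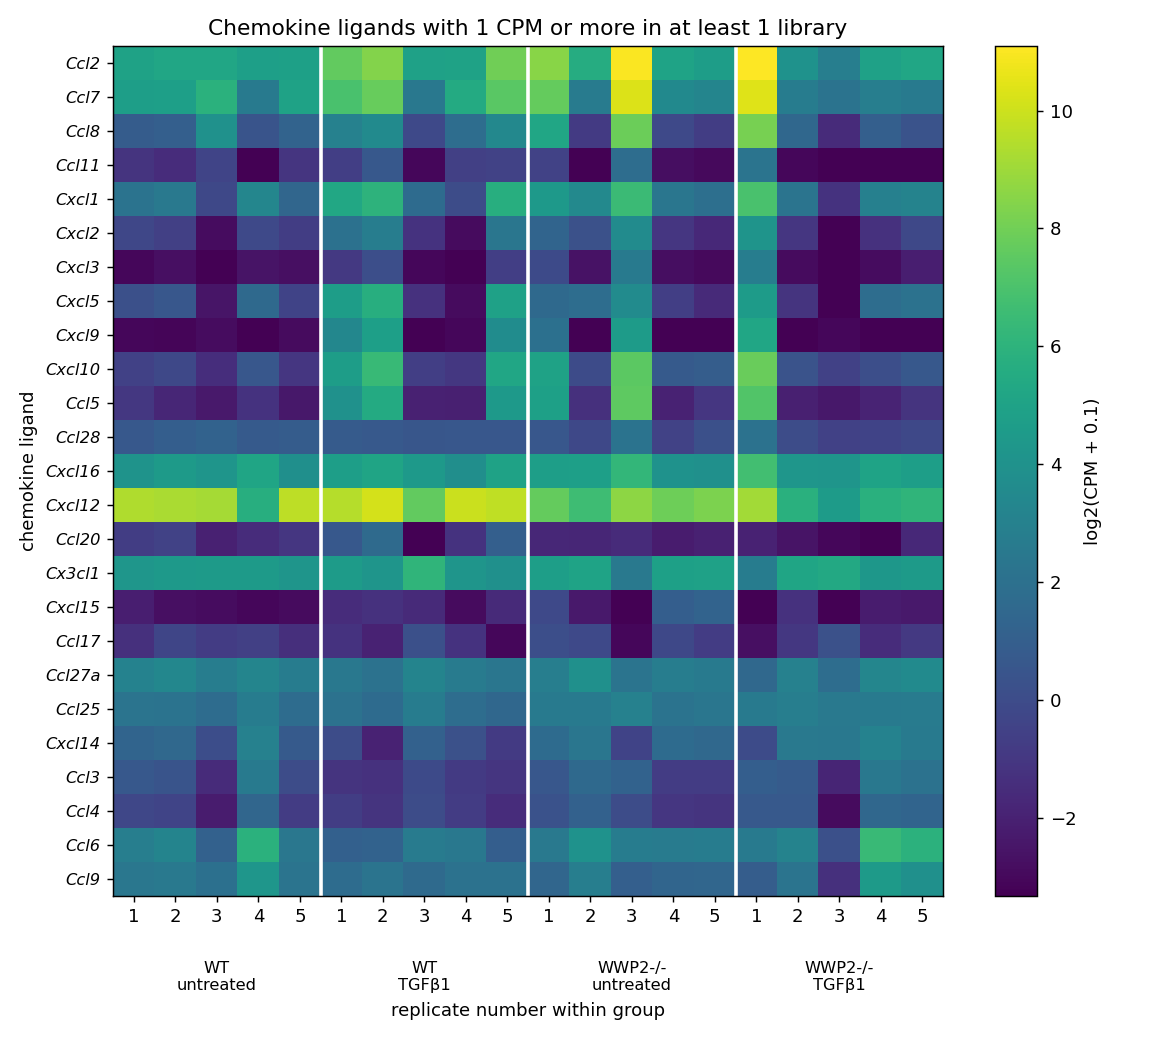
Level of the 25 ligands with 1 CPM or more in at least 1 library, as log2(CPM + 0.1) by colour, with 1 column for each of the 20 libraries and white lines between the groups. A block from Ccl2 to Ccl5 is bright in untreated WWP2-/- 3 and treated WWP2-/- 1 and, less so, in treated WT 1, 2 and 5 and untreated WWP2-/- 1, whereas the rows from Ccl3 to Ccl9 at the bottom are brightest in untreated WT 4 and treated WWP2-/- 4 and 5.

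The monocyte attractants of the CCR2 group were expressed in all groups. Ccl2, the main ligand of the monocyte receptor CCR2, was at 32.0, 36.6, 36.7, 28.5 and 29.4 CPM in untreated WT 1 to 5 and at 199, 340, 30.0, 31.9 and 248 CPM in treated WT 1 to 5. In WWP2-/- cells it was at 367, 49.0, 2045, 33.3 and 25.8 CPM untreated and at 2191, 16.1, 7.08, 29.9 and 37.3 CPM treated. Untreated WT libraries thus stayed within a narrow band, 3 of 5 treated WT and 3 of 5 untreated WWP2-/- libraries stood above it, and in treated WWP2-/- cells 1 library stood far above it and another was at 37.3 CPM, just past its upper end. Ccl7, a neighbour of Ccl2 that binds CCR2 and CCR3, was highest in the same 6 libraries, with 125, 214 and 167 CPM in treated WT 1, 2 and 5, 203 CPM in untreated WWP2-/- 1, and 1271 and 1328 CPM in the libraries low in Acta2. It was at 4.38 to 58.1 CPM in the other 14. Ccl8, a further monocyte attractant, was at 228 and 278 CPM in the libraries low in Acta2, at 37.5 CPM in untreated WWP2-/- 1, and at 0.238 to 15.3 CPM elsewhere. Ccl11, the eosinophil attractant eotaxin, did not reach a mean of 1 CPM in any group, but was at 3.41 and 4.58 CPM in the libraries low in Acta2 and at 1.48 CPM in treated WT 2. Ccl12, which lies between Ccl11 and Ccl8, was at most at 0.347 CPM.

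The neutrophil attractants that bind CXCR2 varied in a like manner. Cxcl1, the most abundant of them, was at 4.41, 5.52, 0.761, 9.55 and 2.58 CPM in untreated WT 1 to 5 and at 40.3, 64.6, 3.14, 0.919 and 52.3 CPM in treated WT 1 to 5. In WWP2-/- libraries it was at 21.2, 10.9, 92.3, 4.96 and 3.69 CPM untreated and at 122, 4.59, 0.330, 7.82 and 8.64 CPM treated. Treated WT 1, 2 and 5 lay above every untreated WT library, but treated WT 3 and 4 did not. Cxcl5 was at 25.8, 51.6 and 30.4 CPM in treated WT 1, 2 and 5, at 12.2 and 24.5 CPM in the libraries low in Acta2 and at 0 to 4.23 CPM elsewhere. Cxcl2 was at 12.2 and 17.4 CPM in the libraries low in Acta2, at 4.07, 6.80 and 5.0 CPM in treated WT 1, 2 and 5 and at no more than 2.40 CPM elsewhere. Cxcl3 was at 5.77 and 6.87 CPM in the libraries low in Acta2 and at most at 1.01 CPM in the other 18, so its expressed status rests on them. Cxcl15, known as a lung epithelial chemokine, had another pattern. It was at 0.794, 0.0971, 0, 1.89 and 2.33 CPM in untreated WWP2-/- 1 to 5 and at 0.324 CPM or less in all 15 other libraries. The 3 higher libraries stood apart from the untreated WT range of 0.0170 to 0.131 CPM, whereas untreated WWP2-/- 2 and 3 did not.

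The ligands of CXCR3, a receptor of activated T cells, were at or near 0 in untreated WT cells. Cxcl10, an interferon-inducible ligand, was at 0.579, 0.784, 0.266, 1.42 and 0.392 CPM in untreated WT 1 to 5 and at 26.1, 84.7, 0.547, 0.415 and 37.2 CPM in treated WT 1 to 5. In WWP2-/- libraries it was at 31.5, 0.874, 179, 1.61 and 1.80 CPM untreated and at 225, 1.20, 0.604, 1.02 and 1.5 CPM treated. The same 6 libraries as for Ccl7 were high, and no other library passed 1.80 CPM. Cxcl9 was detected at 10.3, 27.7 and 12.9 CPM in treated WT 1, 2 and 5, at 3.97 and 23.8 CPM in untreated WWP2-/- 1 and 3 and at 37.1 CPM in treated WWP2-/- 1, and at 0.0380 CPM or less elsewhere. Cxcl11, which completes this trio, is annotated as a polymorphic pseudogene and lies outside the rule, and its maximum was 2.42 CPM in treated WWP2-/- 1. Ccl5, which draws T cells and monocytes, was at 15.8, 44.9 and 21.9 CPM in treated WT 1, 2 and 5, at 29.6 and 186 CPM in untreated WWP2-/- 1 and 3 and at 147 CPM in treated WWP2-/- 1. In the other 14 libraries Ccl5 was between 0.0890 and 0.411 CPM, so it was present or near absent with nothing between.

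**Figure D2:**
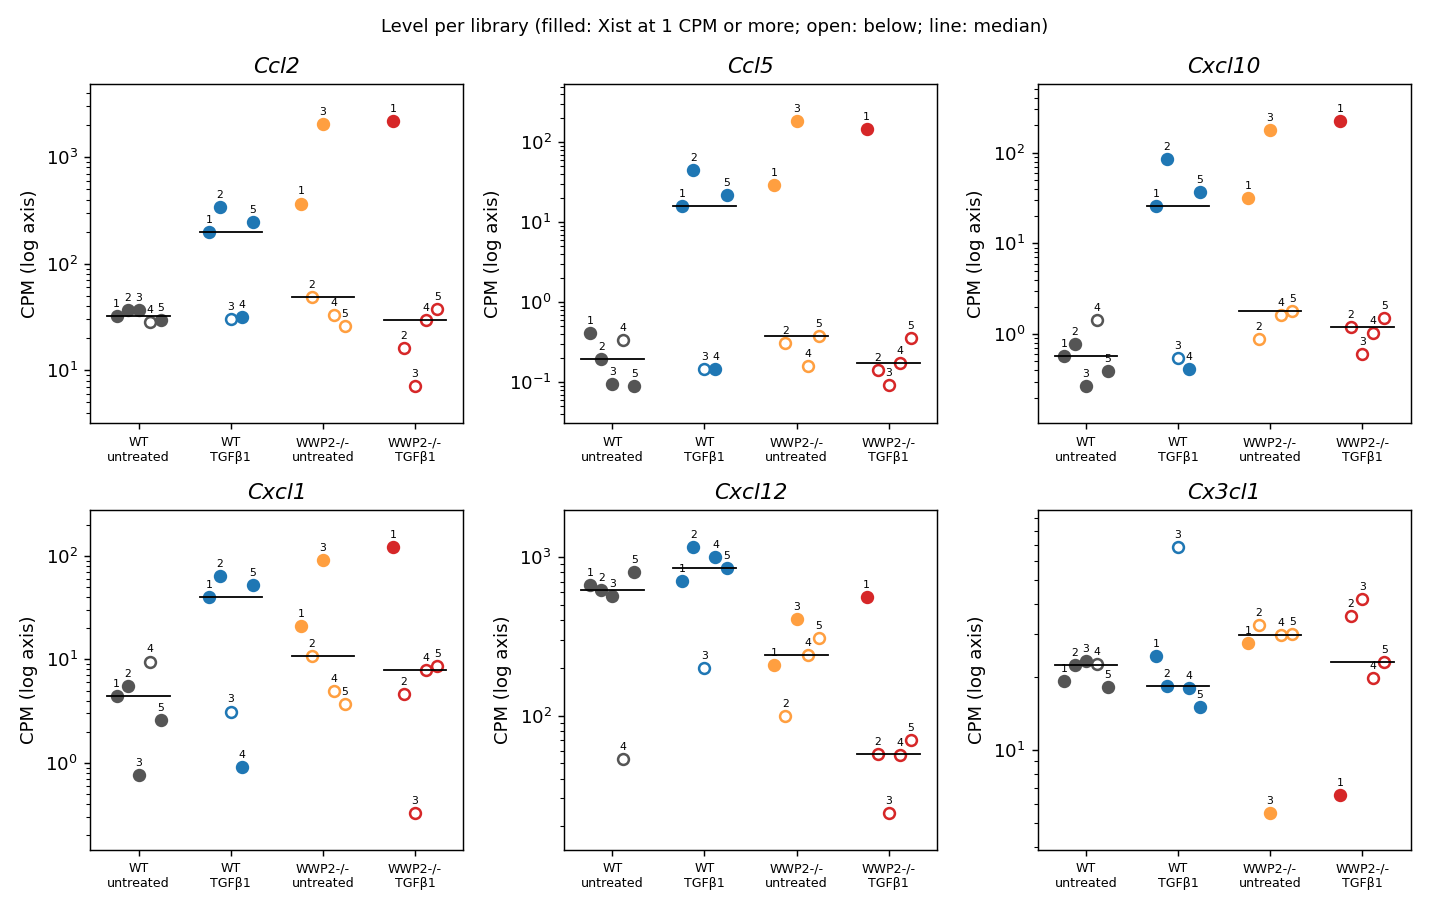
Level in CPM on a log axis of Ccl2, Ccl5, Cxcl10, Cxcl1, Cxcl12 and Cx3cl1 in each library (points, numbered by replicate, with group medians as lines; filled points have Xist at 1 CPM or more). Ccl5 and Cxcl10 split into 6 high and 14 low libraries, all 6 with filled points, Cxcl12 is under 100 CPM in treated WWP2-/- 2 to 5, untreated WWP2-/- 2 and untreated WT 4, and Cx3cl1 is lowest where Ccl2 is highest.

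In all 6 libraries high in Ccl5 and Cxcl10, Xist was at 1 CPM or more, and it was at 1 CPM or more in 5 of the other 14. With Xist as a covariate, the log2 fold change for TGFβ1 in WT cells was 2.80 for Cxcl10 and 5.16 for Ccl5 (5.61 and 6.35 without it), and that between untreated genotypes was 3.95 and 7.42 (5.96 and 7.56 without it), with adjusted P values of 0.0632 to 0.586. Summed macrophage markers did not exceed 591 CPM in these 6 libraries, which is below the maximum of 4275 CPM in untreated WT 4, where Ccl5 was at 0.339 CPM. Members of the pathway lists that were highest in the same libraries, named after their values were seen, include the interferon-induced Isg15, at 97.3 to 574 CPM in the 6 and at 4.22 to 46.7 CPM in the other 14, and the cytokine Il6, at 7.59 to 66.3 CPM against 0.0163 to 3.65 CPM. Ifng was at 0.0380 CPM or less in all libraries, and Tnf was at 1.36 CPM or less.

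Cxcl12, the stromal ligand of CXCR4 that retains progenitors and lymphocytes, was the most abundant homeostatic chemokine. It was at 663, 623, 565, 53.2 and 801 CPM in untreated WT 1 to 5 and at 706, 1153, 199.9, 999 and 850.3 CPM in treated WT 1 to 5. In WWP2-/- libraries it was at 208, 99.9, 407, 241 and 310.4 CPM untreated and at 555, 57.2, 24.4, 56.2 and 69.8 CPM treated. Most WT libraries exceeded 500 CPM and most WWP2-/- libraries did not, yet untreated WT 4 and treated WT 3, the WT libraries without Xist, were low and treated WWP2-/- 1 was high, so the groups overlapped. With TGFβ1 and Xist, Cxcl12 was at 706 to 1153 CPM in 4 WT libraries and at 555 CPM in 1 WWP2-/- library. With TGFβ1 and without Xist, it was at 199.9 CPM in 1 WT library and at 24.4 to 69.8 CPM in 4 WWP2-/- libraries. Without TGFβ1 and without Xist the order was the other way, at 53.2 CPM in 1 WT library and at 99.9 to 310.4 CPM in 3 WWP2-/- libraries. Cxcl14, another homeostatic ligand, is made by fibroblasts and epithelia. It was at 2.37, 2.81, 0.970, 8.02 and 1.62 CPM in untreated WT 1 to 5 and at 0.903, 0.162, 2.13, 1.08 and 0.451 CPM in treated WT 1 to 5. In WWP2-/- libraries Cxcl14 was at 3.19, 5.0, 0.658, 3.23 and 2.85 CPM untreated and at 0.867, 5.58, 5.35, 8.23 and 6.04 CPM treated. It was low in the libraries low in Acta2 and otherwise higher in treated WWP2-/- than in treated WT libraries.

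The membrane-bound ligands were present in every library. Cx3cl1, or fractalkine, which tethers monocytes through CX3CR1, was at 15 to 68.4 CPM in 18 libraries and at 5.53 and 6.56 CPM in the libraries low in Acta2. This is the reverse of the inflammatory ligands, since Cx3cl1 was lowest where Ccl2 was highest. Its highest value was 68.4 CPM in treated WT 3. Cxcl16, the ligand of CXCR6 that also scavenges oxidized lipoproteins, was at 74.3 and 108 CPM in the libraries low in Acta2 and between 13.6 and 36.1 CPM in the other 18. A gene on the opposite strand, Zmynd15, overlaps Cxcl16 and reached 13.1 CPM. The strand setting of the counting is not stated, so reads of such partners cannot be told apart.

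Ccl6, Ccl9, Ccl3 and Ccl4, CC chemokines that myeloid cells make, were highest in the libraries with the most macrophage marker RNA. Ccl6 was at 6.96, 8.95, 2.11, 59.1 and 5.09 CPM in untreated WT 1 to 5 and at 2.02, 2.25, 6.25, 5.37 and 1.91 CPM in treated WT 1 to 5. In WWP2-/- libraries it was at 5.64, 16.0, 6.54, 6.42 and 6.61 CPM untreated and at 5.81, 8.56, 1.04, 88.7 and 61.7 CPM treated. Untreated WT 4 and treated WWP2-/- 4 and 5 stood far above the rest, and they were the libraries with the highest summed macrophage markers, at 4275, 3757 and 2796 CPM. Ccl9 was at 18.9, 23.5 and 15 CPM in these 3 libraries and at 7.22 CPM or less elsewhere. For Ccl3 the 3 values were 5.72, 5.40 and 4.28 CPM, against at most 2.90 CPM elsewhere, and for Ccl4 they were 2.56, 2.74 and 2.44 CPM, against at most 2.12 CPM. The next library by markers, untreated WWP2-/- 2 with 1985 CPM, held the next highest Ccl6, Ccl9, Ccl3 and Ccl4. Ccl3 was also at 2.24 CPM in untreated WWP2-/- 3 and 1.9 CPM in treated WWP2-/- 1, and Ccl4 at 1.54 CPM in the latter, where the marker sums were 92.6 and 84.8 CPM, among the lowest. With the marker sum as a covariate, a fit added after the data were seen, the log2 fold change between genotypes with TGFβ1 was 0.81 for Ccl6 and 1.46 for Ccl3 (3.04 and 2.37 without it), and that for TGFβ1 in WT cells was 0.18 and −0.76 (−2.05 and −1.90 without it).

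**Figure D3:**
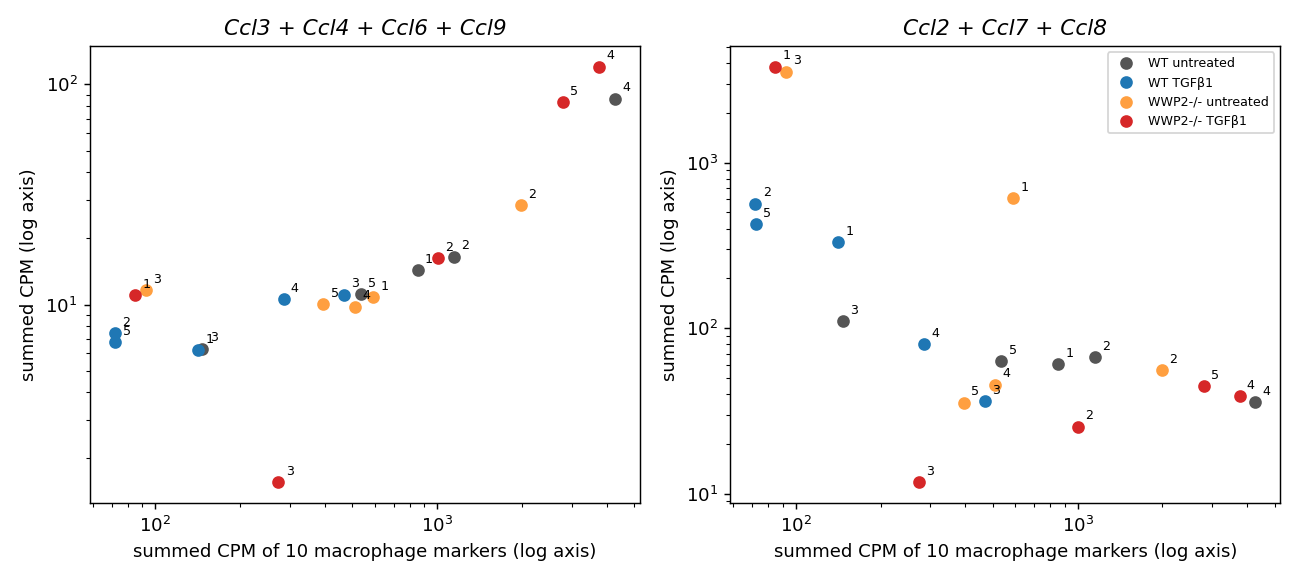
Summed CPM of Ccl3, Ccl4, Ccl6 and Ccl9 (left) and of Ccl2, Ccl7 and Ccl8 (right) against the summed CPM of 10 macrophage markers, on log axes, with 1 point for each library, coloured by group and numbered by replicate. The left sum is highest in the libraries with the most marker RNA (untreated WT 4, treated WWP2-/- 4 and 5), while the right sum is highest in libraries with little of it (untreated WWP2-/- 3 at 92.6 CPM and treated WWP2-/- 1 at 84.8 CPM).

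The remaining expressed ligands are best known from epithelia. Ccl20, the ligand of CCR6, was at 0.523, 0.620, 0.152, 0.254 and 0.392 CPM in untreated WT 1 to 5 and at 1.5, 3.11, 0, 0.324 and 1.95 CPM in treated WT 1 to 5. In WWP2-/- libraries it was at 0.205, 0.194, 0.247, 0.117 and 0.151 CPM untreated and at 0.164, 0.0706, 0.0183, 0 and 0.212 CPM treated. Only treated WT 1, 2 and 5 exceeded 1 CPM, every WWP2-/- library stayed at or under 0.247 CPM, and treated WT 3 held no count. Unlike Ccl2 or Cxcl10, Ccl20 was not raised in the libraries low in Acta2. Ccl28, a mucosal chemokine, was at 1.35 to 2.19 CPM in all 10 WT libraries, at 4.36 and 4.30 CPM in the libraries low in Acta2 and at 0.604 to 1.38 CPM in the other 8 WWP2-/- libraries. Ccl25 and Ccl27a, which direct T cells to gut and skin, were present in every library, at 2.76 to 7.95 CPM and 2.81 to 14.8 CPM. They overlap Elavl1 and Il11ra1 on the opposite strand, which reached 94.5 and 107 CPM, so their levels are uncertain. Ccl17, a CCR4 ligand, was at 1.08 CPM or less in all libraries and was tested but not expressed.

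**Figure D4:**
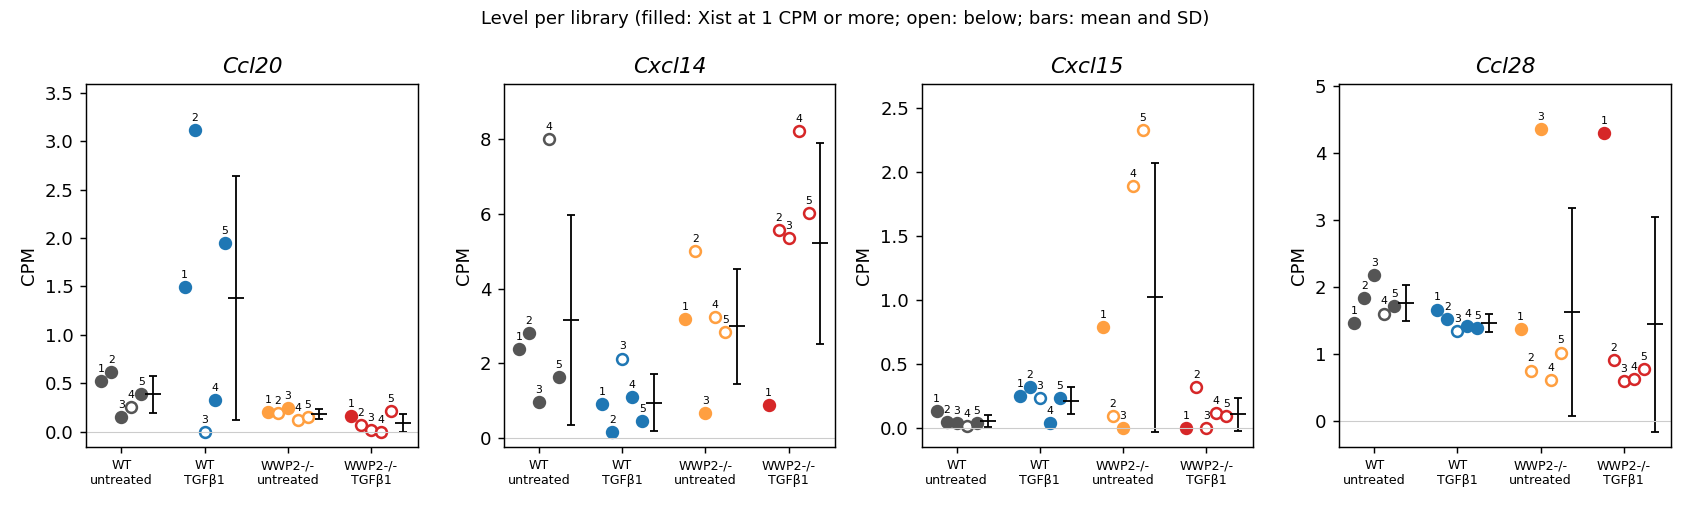
Level in CPM of Ccl20, Cxcl14, Cxcl15 and Ccl28 in each library (points numbered by replicate, with mean and SD of the 5 libraries of a group as bars; filled points have Xist at 1 CPM or more). Ccl20 exceeds 1 CPM in treated WT 1, 2 and 5. Cxcl14 is at 5 CPM or more in treated WWP2-/- 2 to 5, untreated WT 4 and untreated WWP2-/- 2. Cxcl15 exceeds 0.5 CPM in untreated WWP2-/- 1, 4 and 5, and Ccl28 is highest in the libraries low in Acta2.

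The 12 ligands that could not be tested were Ccl12, Cxcl13, Ccl24, Ccl22, Ccl1, Cxcl17 and Xcl1, each at 0.347 CPM or less, and Ccl19, Ccl21a, Ccl21b, Ccl26 and Ccl27b, with 0 counts in all libraries, which allows up to 0.0631 CPM. Among these are Cxcl13, Ccl19 and Ccl21a, the ligands that organize lymphoid tissue. Ccl19, the Ccl21 genes and the Ccl27 genes have near-identical copies, between which reads may have been lost, so their values are uncertain.

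The ligands lie in tight clusters, and neighbours did not always vary together. On chromosome 11 from 82035571 to 82305690 stand Ccl2, Ccl7, Ccl11, Ccl12, Ccl8 and Ccl1. Of these, Ccl2, Ccl7 and Ccl8 were expressed and highest in the same libraries, while Ccl12 and Ccl1 within the same 270120 bases were not. On the same chromosome from 83525778 to 83664683 stand Ccl5, Ccl9, Ccl6, Ccl3 and Ccl4, all expressed. Ccl5 was highest in untreated WWP2-/- 3, where Ccl6 was at 6.54 CPM, and the other members were highest in untreated WT 4 or treated WWP2-/- 4. On chromosome 5 from 90759360 to 90905938 stand Cxcl5, Cxcl3, Cxcl15, Cxcl1 and Cxcl2. Cxcl15 was highest in untreated WWP2-/- 5, where Cxcl1, Cxcl2, Cxcl3 and Cxcl5 were at 3.69, 0.212, 0.0303 and 0.227 CPM, low within their ranges. Cxcl9 and Cxcl10, from 92321347 to 92348889 on chromosome 5, were highest in the same libraries.

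The question of which ligands respond to TGFβ1 was asked within each genotype. In WT cells, no ligand passed an adjusted P of 0.05 (edgeR, as for all values below), and 0% of the 20407 genes tested did so. At an unadjusted P under 0.05 there were 9 ligands, 6 higher and 3 lower, against 6.85% of all genes. Those higher were Cxcl10 (log2 fold change 5.61, SE 2.06), Ccl5 (6.35, SE 2.49), Cxcl5 (4.33, SE 1.66), Cxcl1 (3.01, SE 1.33), Ccl20 (1.97, SE 0.852) and Cxcl9. In treated WT, 3 of 5 libraries carried these differences. The SEs rest on a spread estimated over all 20 libraries, so they also carry the WWP2-/- libraries low in Acta2. Without those libraries, the SEs of Cxcl10, Ccl5 and Cxcl1 were 1.35, 1.69 and 0.988. The ligands that were lower in treated WT were Cxcl14 (−1.64, SE 0.652), Ccl3 (−1.90, SE 0.755) and Ccl6 (−2.05, SE 0.926). Without untreated WT 4 these were −1.01, −0.99 and −0.63. Adjusted P values of the 25 ligands were 0.641 or more. The 10 macrophage markers had a median log2 fold change of −2.43 in this comparison, with 9 at an unadjusted P under 0.05, and with their sum as a covariate Cxcl10 was at 0.29, Ccl5 at 0.59 and Cxcl1 at 0.53. In WWP2-/- cells, again no ligand and 0% of genes passed, with 2 ligands at an unadjusted P under 0.05 against 3.49% of genes. These were Cxcl15 (−3.29, SE 1.06) and Ccl6 (1.99, SE 0.921), with adjusted P values of 0.759 and 1.0. For Ccl2 the estimate was −0.07 (SE 1.37), which leaves room for changes in either direction. Without both libraries low in Acta2, 0 ligands and 0% of genes passed in either genotype, with 12 ligands in WT and 8 in WWP2-/- cells at an unadjusted P under 0.05, against 10.4% and 6% of genes. With all libraries, the median over the 25 ligands was 0.70 in WT and 0.16 in WWP2-/- cells, where the median over all genes was 0.02 and 0.00. DESeq2, a second count test, called no ligand in either comparison, with 12 and 3 at an unadjusted P under 0.05 against 8.13% and 4.3% of genes, and called 0.132% and 0.24% of genes.

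Between genotypes without treatment, no ligand passed, where 0.725% of genes did (0.103% higher and 0.622% lower in WWP2-/- cells). At an unadjusted P under 0.05 were 6 ligands, all higher in WWP2-/- cells, against 14.9% of genes. They were Cxcl15 (4.17, SE 1.14, adjusted P = 0.0995), Ccl5 (7.56, SE 2.61, adjusted P = 0.196), Cxcl10 (5.96, SE 2.09, adjusted P = 0.204), Cxcl3 (5.03, SE 1.96, adjusted P = 0.249), Ccl2 (3.91, SE 1.54, adjusted P = 0.256) and Cxcl9. Leaving out untreated WWP2-/- 3 moved Ccl2 to 1.75, Ccl5 to 4.99, Cxcl10 to 3.64 and Cxcl3 to 2.55. The fold of Cxcl3 rests on 4 or fewer counts per untreated WT library, and no fold is given for Cxcl9, which had no more than 3. DESeq2 called 5 ligands here (Cxcl15, Ccl5, Cxcl10, Cxcl3 and Ccl2), all higher, where it called 3.64% of genes. Without both libraries low in Acta2, edgeR called 2 ligands among 1.34% of genes (0.51% higher and 0.832% lower), Cxcl15 higher (4.48, adjusted P = 0.0350) and Ccl28 lower (−1.0, adjusted P = 0.0454).

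Between genotypes with TGFβ1, 2 of 25 ligands passed, 1 in each direction, where 6.07% of genes did (2.1% higher and 3.96% lower in WWP2-/- cells). Ccl20 was lower in WWP2-/- cells, with 0.0928±0.0919 CPM against 1.38±1.26 CPM (mean±SD), a log2 fold change of −4.02 (SE 0.955, adjusted P = 0.0207). Cxcl14 was higher, with 5.21±2.68 CPM against 0.944±0.754 CPM, a log2 fold change of 2.37 (SE 0.666, adjusted P = 0.0429). The share of ligands called is near that of all genes. With all libraries, the median over the 25 ligands was 0.51 here and 0.52 without treatment, against 0.05 and 0.08 over all genes. Both medians include the libraries low in Acta2. Without these libraries the sign of several ligands turned in the comparison with TGFβ1, as given below. Ccl8, for example, went from 2.93 to −2.40. In neither case did the groups separate: treated WT 3 held no count of Ccl20, and treated WWP2-/- 1 held less Cxcl14 than treated WT 3. No ligand had non-overlapping groups in this comparison or in the other 3, against 5.53% of genes here and 1.19%, 0.421% and 2.82% for TGFβ1 in WT, TGFβ1 in WWP2-/- and genotype without treatment. Without treated WT 2, Ccl20 no longer passed (adjusted P = 0.0613). Cxcl14 passed in 7 of 20 fits that left out 1 library and missed in 13, those without untreated WT 1 or 2, treated WT 1, 2, 4 or 5, untreated WWP2-/- 1, 4 or 5, or treated WWP2-/- 2, 3, 4 or 5, with adjusted P values of 0.0529 to 0.109 where it missed. Xist status moved with both. Among treated libraries with Xist, Ccl20 was at 0.324 to 3.11 CPM in 4 WT and at 0.164 CPM in 1 WWP2-/- library, and among those without, at 0 CPM in 1 WT and at 0 to 0.212 CPM in 4 WWP2-/- libraries. Cxcl14 was at 0.162 to 1.08 CPM in 4 WT and 0.867 CPM in 1 WWP2-/- library with Xist, and at 2.13 CPM in 1 WT and 5.35 to 8.23 CPM in 4 WWP2-/- libraries without.

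Next in order were Ccl6 (3.04, SE 0.962, adjusted P = 0.0652), Ccl3 (2.37, SE 0.765, adjusted P = 0.0692), Cxcl12 (−2.48, SE 0.813, adjusted P = 0.0726) and Ccl25 (0.51, SE 0.207, adjusted P = 0.138), the other ligands at an unadjusted P under 0.05, where 24.7% of genes were. All 10 macrophage markers were at an unadjusted P under 0.05 in this comparison, with a median log2 fold change of 2.52, and 0 passed. The summed level of 10 fibroblast markers was 12965 to 32993 CPM in treated WT and 5333 to 14852 CPM in treated WWP2-/- libraries, and its part in the value of Cxcl12 was not tested. With Xist as a covariate, Cxcl12 was at −1.64 (adjusted P = 0.0584). The library low in Acta2 decided much of the rest. Ccl2 had an estimate of 1.33 (SE 1.39) with all libraries and −3.14 (SE 0.874, adjusted P = 0.0249) without both libraries low in Acta2. Leaving out treated WWP2-/- 1 alone gave −3.16 (adjusted P = 0.0820). Ccl7 went from 1.18 to −4.40, Ccl5 from 0.73 to −6.62, Cxcl10 from 0.52 to −4.99 and Ccl28 from −0.12 to −1.16, all past the test without these libraries. In that fit the log2 fold change was −4.13 for Cxcl12 and −4.33 for Ccl20 (−2.48 and −4.02 with all libraries). Ccl11 was also lower in WWP2-/- cells, and Ccl6 (3.28), Ccl3 (2.43) and Cxcl14 (2.62) were higher. In all, 11 of 24 ligands then passed, 3 higher and 8 lower, where 17.2% of genes passed (7.69% higher and 9.56% lower). This fit was added after the data were seen.

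**Figure D5:**
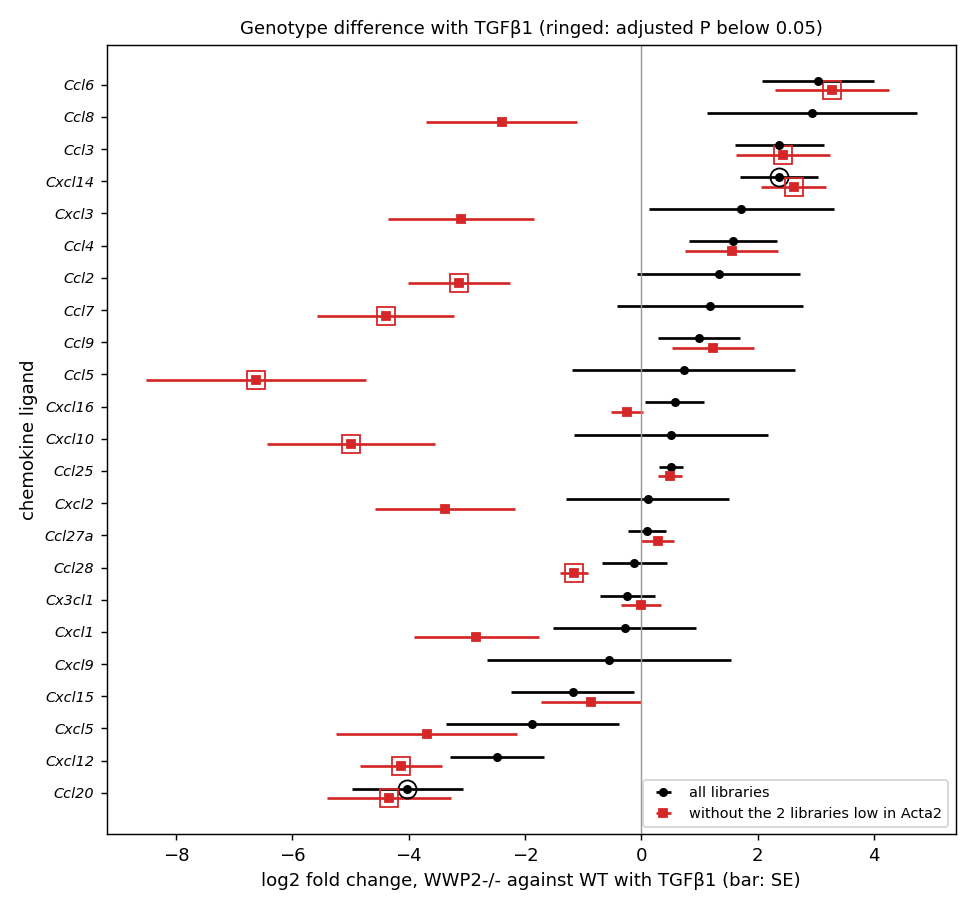
Log2 fold change of the 23 expressed ligands between WWP2-/- and WT cells with TGFβ1 (bars: SE), with all libraries (black circles) and without the 2 libraries low in Acta2 (red squares, not drawn where a group held 3 counts or fewer per library), ringed where the adjusted P is below 0.05. Ccl2, Ccl7, Ccl5 and Cxcl10 lie right of 0 in black and left of it in red, while Ccl20, Cxcl12, Cxcl14, Ccl6 and Ccl3 keep their side.

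The interaction asked whether the TGFβ1 response differed between genotypes. No ligand passed, and 0% of genes did. At an unadjusted P under 0.05 were 9 ligands against 6.98% of genes: Cxcl15 (−5.35), Ccl20 (−2.88), Ccl5 (−6.83), Cxcl10 (−5.44) and Cxcl9 with a lower response in WWP2-/- cells, and Ccl6 (4.04), Cxcl14 (2.48), Ccl3 (2.73) and Ccl9 (2.21) with a higher. Their adjusted P values were 0.511 to 0.700. The median over the 25 ligands was −0.81, against −0.02 over all genes. Without both libraries low in Acta2, again 0 ligands and 0% of genes passed, with 15 ligands at an unadjusted P under 0.05 against 11.5% of genes. The estimate of Ccl5 was then −11.59, of Cxcl10 −8.61, of Ccl7 −5.17 and of Ccl2 −4.88, with adjusted P values of 0.114 to 0.171. The comparisons share libraries and are not independent of each other. DESeq2 also called 0 ligands among 0.049% of genes, with 9 at an unadjusted P under 0.05 against 8.26% of genes.

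Of 23 chemokine receptors and scavengers, 11 were tested, and those of neutrophils and monocytes were scarce, with Cxcr2 at most at 0.0678 CPM and Ccr2 at 0.136 CPM. Ackr4, an atypical receptor that clears Ccl19, Ccl21 and Ccl25, was lower in WWP2-/- cells untreated (−4.85, adjusted P = 0.0214) and treated (−3.59, adjusted P = 0.0164). Ccr1, the receptor of Ccl6 and Ccl9, was higher with TGFβ1 (4.03, adjusted P = 0.0272) and highest in treated WWP2-/- 4, untreated WT 4 and treated WWP2-/- 5, at 17, 14.6 and 10.7 CPM, the libraries with the most macrophage marker RNA. No other receptor passed in any comparison. Among 22 cytokines and cytokine receptors that induce chemokines, 6 were called between genotypes with TGFβ1, where 6.07% of all genes were, with 2 higher (the interleukin Il1a, 3.18, adjusted P = 0.0379, and the interferon receptor subunit Ifngr2, 0.52, adjusted P = 0.0474, both named after their values were seen) and 4 lower. The TNF receptor Tnfrsf1b (−0.48), the alarmin Il33 (−3.53), the TNF receptor Tnfrsf1a (−0.67) and the shared IL-6 receptor subunit Il6st (−1.04) were lower. Among 18 genes that process or bind chemokines, 2 were called in that comparison, where 6.07% of all genes were. Dpp4, a protease that trims the amino end of Cxcl10 and Cxcl12, was lower (−4.59, adjusted P = 0.0086). Mmp9, a matrix protease, was higher (5.18, adjusted P = 0.0158). It was at 46.9, 1.99, 29.4, 4.41 and 2.73 CPM in treated WWP2-/- 1 to 5, the first of them low in Acta2, and at 0.180 to 0.947 CPM in treated WT. Its fold without that library is not given here. None of 20 NF-κB genes passed in any comparison. The 16 interferon genes had a median of 3.20 for TGFβ1 in WT cells, with 16 above 0 and 11 at an unadjusted P under 0.05. The rise was not uniform. Their summed level was 3982, 6638, 297, 775 and 5249 CPM in treated WT 1 to 5, against 366 to 660 CPM in untreated WT. In WWP2-/- libraries 1 to 5 it was 1443, 378, 7438, 271 and 298 CPM untreated and 8128, 240, 180, 323 and 375 CPM treated. Untreated WWP2-/- 3 and treated WWP2-/- 1, the libraries low in Acta2, thus held the highest sums of their groups. Between genotypes the median of the 16 genes was 2.11 without treatment, with 15 above 0, and −1.07 with TGFβ1, with 2 above 0. These medians include the libraries low in Acta2. None of the 16 interferon genes passed in any comparison. Of the cell type lists, the endothelial Tek was lower in WWP2-/- cells in both genotype comparisons. With TGFβ1 the endothelial Kdr, the mesothelial Wt1, the pericyte gene Itga8 and the fibroblast genes Col1a2, Postn and Col1a1 were lower. Tek, Kdr and Itga8 do not stand for their lists. With TGFβ1, 7 of 10 endothelial markers (median 0.60) and 4 of 7 pericyte markers (median 0.14) were above 0. Without treatment, 6 of 10 endothelial markers were above 0 (median 0.71). Of the fibroblast markers, 1 of 10 was above 0 with TGFβ1 (median −2.34). No macrophage, neutrophil, lymphocyte or tubular marker passed in any comparison. Pf4 and Ppbp, platelet chemokines whose symbols the rule does not cover, reached 3.12 and 1.77 CPM. Between genotypes with TGFβ1, Pf4 had a log2 fold change of 3.53 (adjusted P = 0.0563) and Ppbp of 2.75 (adjusted P = 0.197).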

How the data were processed

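The counts are whole-number read counts per gene, made by the authors from paired-end NovaSeq reads of poly-A RNA, aligned with STAR to GRCm38 and counted over exons with featureCounts. Tool versions and the strand setting are not given in the sources used here. The authors deposited the counts without normalization. All 51826 genes were kept, of which 16652 had no count. Gene types, positions and exon lengths came from GENCODE, which names 51633 of the genes. CPM was the count scaled to 1000000 counts in the library, and TPM used union exon lengths.

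Of these, 20407 genes, those that reached 5 counts in 5 or more libraries, entered edgeR 4.0.16 (R 4.3.3) with TMM normalization, 1 coefficient for each group over all 20 libraries, and the quasi-likelihood test. P values were adjusted by the Benjamini-Hochberg method over all genes tested, with a threshold of 0.05. SE was the absolute log2 fold change divided by the square root of F. The fit was tested on simulated data. Tests were limited to TGFβ1 within each genotype, genotype without and with TGFβ1, and the interaction. Libraries were grouped by genotype and treatment in the labels.

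The ligands, gene lists and tests were chosen with earlier results of these data known. Ligands with a group mean of 1 CPM or more are described by their values, the others by their highest value or in counts, and of each list at most 4 called genes per comparison are named in order of P. No fold is given against a group with 3 counts or fewer in every library. Alternatives were DESeq2 1.42.0 size factors and Wald test, no filter, at least 10 counts in every library, a replicate block, only the groups compared, Xist as a covariate, a threshold of 0.01, and leaving out each library. Leaving out both libraries low in Acta2 (under 100 CPM) and the macrophage marker sum as a covariate were chosen after seeing the data. Figures were drawn with matplotlib 3.10.9.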

Additional observations from a re-analysis of the deposited data

Results flagged for a closer look

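In groups of 5 libraries, the highest or lowest value of an expressed ligand stood apart from the other 4 by Dixon's criterion in 38 of 92 groups tested, over 21 ligands. The criterion flags about 1 in 20 groups of independent, normally distributed values. These were CPM without a log scale, and the ligands share libraries, so that rate does not measure chance here. The share over all genes is not given, so the count says nothing particular to the ligands. No explanation of these values was tested.

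Untreated WWP2-/- 3 accounted for 13 of them. It was the highest of its group for Ccl2 (2045 CPM), Ccl7 (1271 CPM), Ccl8 (228 CPM), Ccl5 (186 CPM), Cxcl10 (179 CPM), Cxcl1 (92.3 CPM), Cxcl16 (74.3 CPM), Cxcl9 (23.8 CPM), Cxcl5 (12.2 CPM), Cxcl2 (12.2 CPM), Cxcl3 (5.77 CPM) and Ccl28 (4.36 CPM), and the lowest for Cx3cl1 (5.53 CPM). Treated WWP2-/- 1, the other library low in Acta2, accounted for another 13, all of them high: Ccl2 (2191 CPM), Ccl7 (1328 CPM), Cxcl12 (555 CPM), Ccl8 (278 CPM), Cxcl10 (225 CPM), Ccl5 (147 CPM), Cxcl1 (122 CPM), Cxcl16 (108 CPM), Cxcl9 (37.1 CPM), Cxcl5 (24.5 CPM), Cxcl2 (17.4 CPM), Cxcl3 (6.87 CPM) and Ccl28 (4.30 CPM). Against the median of the other 4 libraries of its group, Ccl5 was 543-fold higher in untreated WWP2-/- 3 and 932-fold higher in treated WWP2-/- 1, while for Cxcl16 the ratios were 3.46 and 4.67.

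Untreated WT 4, the library with the most macrophage marker RNA, stood above its group for Ccl6 (59.1 CPM), Ccl9 (18.9 CPM), Cxcl14 (8.02 CPM), Ccl3 (5.72 CPM) and Ccl4 (2.56 CPM). Untreated WWP2-/- 2, the highest of its group for these markers, stood above it for Ccl6 (16.0 CPM), Ccl27a (14.8 CPM) and Ccl9 (7.22 CPM). Treated WT 3, the treated WT library without Xist, was high for Cx3cl1 (68.4 CPM) and Ccl3 (0.842 CPM). Untreated WT 3 was high for Ccl8 (15.3 CPM) and untreated WT 1 for Cxcl15 (0.131 CPM).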

How the results depend on the processing

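The count of ligands called between genotypes with TGFβ1, 2 in the test as reported, was 0 with at least 10 counts in every library (where Ccl20 and Cxcl14 were not tested), with only the groups compared, with Xist as a covariate, at an adjusted P of 0.01 and with the macrophage marker sum as a covariate, 5 with DESeq2's Wald test (Ccl20, Cxcl14, Ccl3, Ccl6 and Cxcl12, among 13.1% of genes) and 11 without both libraries low in Acta2. The fits with 0 ligands called 1064, 569, 779, 101 and 884 genes in all, in the order given. Leaving out 1 library gave 0 ligands (without treated WT 2) to 6 (without treated WWP2-/- 1), while 453 to 2730 genes were called in all. Ccl20 had a log2 fold change of −2.87 (adjusted P = 0.107) and Cxcl14 of 1.11 (adjusted P = 0.143) with Xist as a covariate, and of −3.30 (adjusted P = 0.0866) and 1.29 (adjusted P = 0.0647) with the macrophage marker sum. With no filter, 2 ligands were called among 790 of 35174 genes, Ccl20 and the nearly absent Cxcl13, and Cxcl14 had an adjusted P of 0.0580.

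Between genotypes without treatment (0 called), DESeq2's Wald test called 5 ligands, among 743 of 20407 genes. With Xist as a covariate 2 were called (Ccl11 and Cxcl9), among 88 genes. Leaving out both libraries low in Acta2 gave 2, among 271 of 20182 genes. With the macrophage marker sum 1 was called (Cxcl15, 4.27, adjusted P = 0.0412), among 844 genes. For TGFβ1 in WT cells (0 called), Xist as a covariate called 1, Cxcl9, the only gene called in all. The other alternatives kept these counts, those of TGFβ1 in WWP2-/- cells and of the interaction at 0, and leaving out 1 library gave 0 in all 4. The number of expressed ligands (23) was 8 if 1 CPM was asked of all 20 libraries, and 22 to 24 without 1 library. With the macrophage marker sum as a covariate, Ccl6 for TGFβ1 in WT cells turned to 0.18 and the interaction of Ccl9 to −0.11.

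The labels do not say whether the replicate numbers pair the libraries, and the values did not settle it. The correlation of deviations between libraries with the same number was −0.522 to 0.299 within WT, −0.185 to 0.283 within WWP2-/-, −0.0213 to 0.443 between untreated and −0.417 to 0.126 between treated groups. With the replicate number as a block, 1 ligand was called between genotypes with TGFβ1 (Ccl20), among 350 genes, and Cxcl14 had an adjusted P of 0.0783.

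Depth limits the ligands under 1 CPM, whose values rest on few counts. Genotype and Xist status overlap in these libraries, so their parts cannot be told apart beyond the values given.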
